A study of Mus musculus with 28 samples.

Results

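The 36 genes described here encode the enzymes, carriers and regulators by which kidney cells oxidise fatty acids. They were chosen by symbol for their known role from the 53392 genes of the transcript tables, with earlier results of these data known. All 36 passed the low-count filter in both cell types.

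The study examined whether exosomes or a mimic of the microRNA miR-486-5p changed the transcriptome of mouse kidney after ischemia and reperfusion, an injury in which blood flow is stopped and restored. Poly(A) RNA was sequenced from kidney cells of FVB male mice. Microbeads against CD31, an endothelial surface protein, captured the endothelial cells, while tubule pieces were dissected for the proximal tubular ones. Each cell type had 5 groups: sham-operated mice without injury, injured mice left untreated, and injured mice given a scrambled miRNA, exosomes or the mimic. The labels give 3 samples for each group and 2 for each mimic group, 28 in all, while the extraction notes speak of 3 mice per group. The labels give no age, dose, route or time after injury. They also do not say whether endothelial and tubular samples with 1 library number came from 1 mouse, so the p-values below measure only the spread between these samples. The 3 treated groups of each cell type have transcript tables, 16 libraries in all, and all of these mice carried the injury. The scrambled-miRNA libraries are the control of the treatment comparisons. Sham and untreated libraries, which the labels mark as re-analysed from earlier records, enter only through the authors' deposited comparison tables.

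Fatty acids are activated to acyl-CoA, carried into mitochondria as carnitine esters, and shortened by a repeating cycle of dehydrogenation, hydration, a further dehydrogenation and thiolysis. Peroxisomes run a related cycle on very long and branched chains, and the nuclear receptor encoded by Ppara, with the coactivator encoded by Ppargc1a, drives many of these genes. Proximal tubule cells take most of their ATP from this pathway, and its loss is a known feature of injured tubules.

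Libraries held 8.27 to 25.3 M assigned reads. Endothelial markers were 14 of 14 lower in tubular than in endothelial libraries, and proximal tubule markers 13 of 14 higher. The endothelial libraries were not free of tubule RNA. Summed proximal tubule markers (14 genes) reached 1631 to 15098.5 TPM (a share of the transcripts of a library, corrected for length) in them, against 14535 to 43371 TPM in tubular libraries. Thick ascending limb markers (8 genes) summed to 3703 to 14868 TPM in endothelial libraries and 252 to 662 TPM in tubular ones. Endothelial markers (14 genes) summed to 524 to 1159 TPM in endothelial libraries and 33.8 to 85.1 TPM in tubular ones. In each endothelial library the endothelial sum was thus below both tubule sums. Values of endothelial libraries are therefore not values of endothelial cells alone. Within a bulk library, fewer cells of a type and less RNA per cell cannot be told apart.

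The levels of the 36 genes, on the TPM scale that corrects for transcript length, had medians from 3.28 to 2983 TPM in tubular libraries. Acsm2, a medium-chain acyl-CoA synthetase of the kidney, was highest, with a median of 2983 TPM over 8 libraries (lowest 1464, highest 3971). Its relative Acsm3 followed at 1310 TPM (469 to 2678), so that the ranges of the 2 overlapped. Etfb, a subunit of the flavoprotein that takes electrons from the acyl-CoA dehydrogenases, had 1012 TPM (678 to 1353). Acadm, the medium-chain acyl-CoA dehydrogenase, had 861 TPM (526 to 1039), and its range overlapped that of Etfb. Below these 4 genes came Etfa at 265 TPM, the partner subunit of Etfb, then Hadh at 234 TPM, which oxidises hydroxyacyl-CoA. The lowest medians belonged to the thioesterase gene Acot2 at 7.38 TPM and to the regulators Ppargc1a at 3.92 TPM and Pdk4, a kinase that shuts off pyruvate oxidation, at 3.28 TPM.

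In endothelial libraries the order differed. Etfb led with 439.5 TPM (304 to 588), ahead of Acsm2 at 357 TPM, whose libraries ran from 150 to 1600 TPM. Acadm followed at 267 TPM (160 to 397) and Hadhb, the thiolase subunit of the mitochondrial trifunctional protein, at 241.5 TPM (172 to 364). Hadha, the other subunit of that protein, had 151 TPM. Acsm1, at 3.15 TPM, and Ppara, at 3.17 TPM, were lowest.

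The 36 genes together took 5382 to 10862.5 TPM of a tubular library and 1861 to 4891 TPM of an endothelial library, and the cell types did not overlap. Within the tubular scrambled-miRNA group, library 3 had the lowest TPM for 31 of 36 genes, and its members summed to 5382 TPM against 9222.5 and 8605 TPM in the others. In the endothelial exosome group, library 1 had the highest TPM for 30 of 36 genes. It summed to 4891 TPM against 1861 and 2296 TPM, and it also had the highest proximal tubule marker sum of its group, 15098.5 against 2540.2 and 1631 TPM. The part of that RNA in its fatty acid oxidation values was not tested.

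**Figure D1:**
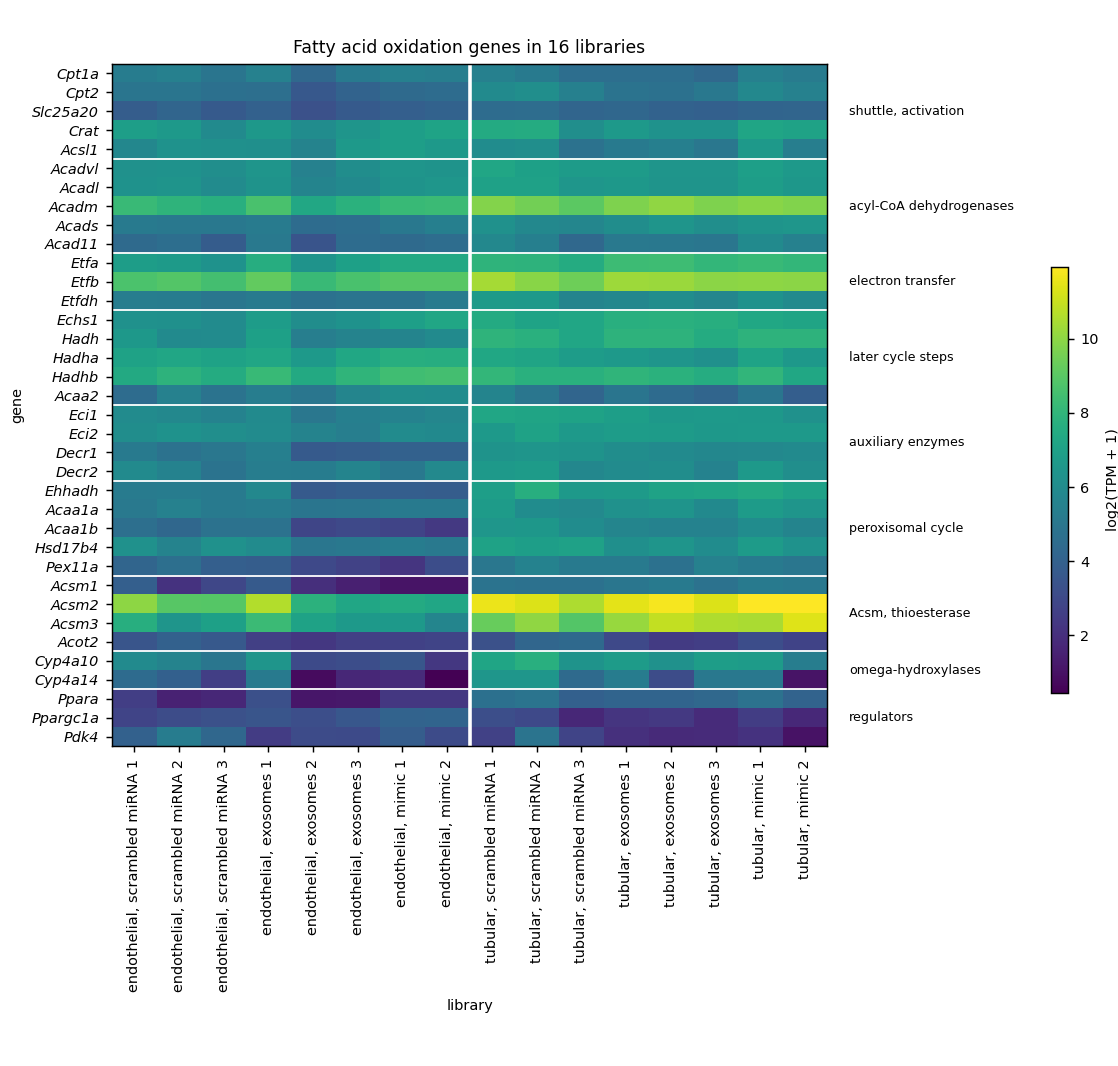
Level of each of the 36 genes (vertical axis, grouped by role) in each of 16 libraries (horizontal axis), as log2 of TPM plus 1, with endothelial libraries left of the white line and tubular libraries right of it. Acsm2, Acsm3, Etfb and Acadm form the brightest lines in the tubular libraries, where their medians were 2983, 1310, 1012 and 861 TPM.

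Across cell types, most of the pathway was higher in tubular cells. In a fit of all 16 libraries (edgeR's quasi-likelihood test with Benjamini-Hochberg adjustment over 17143 genes, threshold 0.05), 29 of 36 genes were higher in tubular libraries, where 29.9% of all genes tested were called higher. A further 5 were lower, where 36.3% of all genes were. The median log2 fold was 1.15 over the 36 genes and -0.06 over all genes. The 29 higher genes included all 5 acyl-CoA dehydrogenase genes, all 3 electron transfer genes, all 4 auxiliary enzymes for unsaturated chains and all 5 peroxisomal genes.

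The Acsm synthetases differed most: the log2 fold was 3.60 (SE 0.30) for Acsm3, 3.10 (SE 0.35) for Acsm1 and 2.94 (SE 0.38) for Acsm2. Ehhadh, the bifunctional enzyme that hydrates and oxidises acyl-CoA in peroxisomes, had a fold of 2.69 (SE 0.28). Its level was 98.7 to 201 TPM in tubular libraries and 12.1 to 54.5 TPM in endothelial libraries, without overlap. Acaa1b, a peroxisomal thiolase, had 2.60 (SE 0.23), although 50.1% of its 31-base words also occur in other transcripts, mostly in Acaa1a, so reads could be split between the 2 genes. Ppara itself had 2.13 (SE 0.25), with 14.7 to 28.1 TPM in tubular and 1.19 to 8.45 TPM in endothelial libraries, again without overlap. The omega-hydroxylase genes Cyp4a10 and Cyp4a14, known targets of that receptor, had 2.32 (SE 0.47) and 2.35 (SE 0.79). Cyp4a10 shares 44.9% of its words, most of them with Cyp4a32.

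Among the mitochondrial enzymes, Acadm was 1.74 log2 units higher (SE 0.16) in tubular libraries, Hadh 1.89 (SE 0.18) and the short-chain dehydrogenase gene Acads 1.45 (SE 0.11). The very-long-chain gene Acadvl and the long-chain gene Acadl differed less, by 0.70 (SE 0.10) and 0.53 (SE 0.11). Cpt2, the inner-membrane carnitine palmitoyltransferase, was 1.15 units higher (SE 0.14), while Cpt1a, the outer-membrane enzyme that limits entry, did not pass the test (-0.11, SE 0.13, adjusted p = 0.469). Hadhb did not pass either (-0.10, SE 0.11, adjusted p = 0.445), and its partner Hadha was lower in tubular libraries (-0.36, SE 0.10). Other genes lower in tubular libraries were the mitochondrial thiolase gene Acaa2 (-0.70, SE 0.20), the synthetase gene Acsl1 (-0.58, SE 0.21), Ppargc1a (-1.34, SE 0.16) and Pdk4 (-1.36, SE 0.46). Ppargc1a and Ppara thus lay on opposite sides. The 8 genes more than 2 log2 units higher in tubular libraries were Acsm1, Acsm2, Acsm3, Ehhadh, Acaa1b, Cyp4a10, Cyp4a14 and Ppara. For comparison, the proximal tubule markers had a median log2 fold of 2.96, and thick ascending limb markers -3.90.

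**Figure D2:**
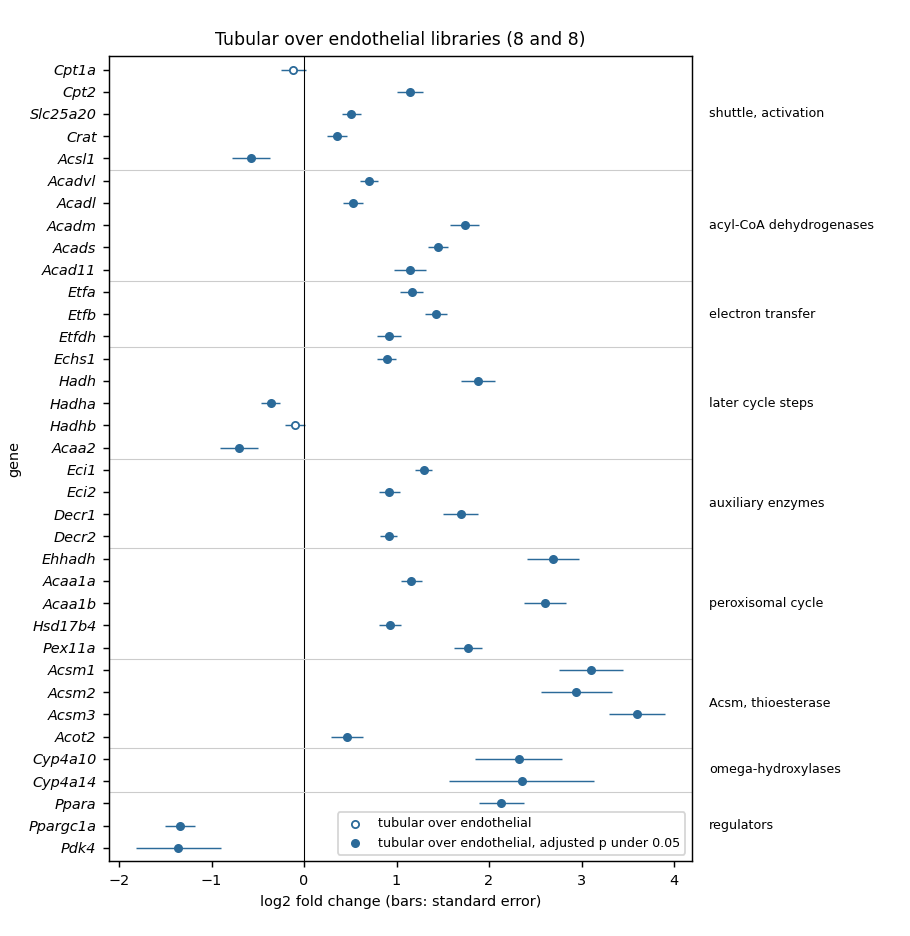
Log2 fold of tubular over endothelial libraries (horizontal axis, 8 libraries each) for each of the 36 genes (vertical axis), with bars for the standard error and filled points for an adjusted p under 0.05. The Acsm genes lie farthest right, between 2.94 and 3.60, and Ppargc1a and Pdk4 farthest left, at -1.34 and -1.36.

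Of 72 further fatty acid oxidation genes, 71 were tested between cell types. Of these, 50 were higher in tubular libraries, where 29.9% of all genes were, and 15 were lower, where 36.3% of all genes were (median log2 fold 1.13). Fabp1, a fatty acid carrier protein, had the largest fold, 4.47 (SE 0.99). Cpt1b, the muscle-type isoform of the outer-membrane transferase, was lower (-3.93, SE 0.36), as were the synthetase gene Acsl6 (-3.65, SE 0.77) and Acacb, the acetyl-CoA carboxylase that makes the inhibitor malonyl-CoA (-3.22, SE 0.34). Acsm5 (3.16, SE 0.35) and Eci3 (3.10, SE 0.36) were higher. Of 22 further regulators, 9 were higher and 6 lower.

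Few of these genes were called with exosomes in tubular cells. Against scrambled miRNA, Echs1 and Etfa were higher and Acot2 was lower (edgeR's quasi-likelihood test, adjusted over 14913 genes). That is 2 genes higher, where 2.72% of all genes tested were, and 1 lower, where 2.41% were. At an unadjusted p under 0.05 there were 14 of 36, against 24.8% of all genes. The median log2 fold was -0.06 over the 36 genes and -0.02 over all genes, with 17 of 36 above 0. On the TPM scale, where the median of all genes shifted by -0.33, 9 of 36 were above 0 and 8 changed sign, Hadhb among them and no called gene. The sequences upstream of the 3 called genes are shown first because these genes passed the test. They come from RefSeq (GRCm38.p6), on the gene's strand, 5' to 3', upstream of the start site. Capitals mark a CCAAT box (CCAAT) or a GC box (GGGCGG), on either strand. The Echs1 stretch lies at chr7:140116477-140116671 (minus strand, 195 bases). The 55 bases next to its start site were left out as annotated exon, within the annotated span of Echs1. The Etfa stretch lies at chr9:55512244-55512493 (minus strand) and the Acot2 stretch at chr12:83987611-83987860 (plus strand).
Echs1: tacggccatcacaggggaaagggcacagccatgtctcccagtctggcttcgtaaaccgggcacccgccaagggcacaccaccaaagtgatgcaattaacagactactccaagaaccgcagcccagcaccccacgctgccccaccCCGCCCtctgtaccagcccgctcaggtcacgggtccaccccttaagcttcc
Etfa: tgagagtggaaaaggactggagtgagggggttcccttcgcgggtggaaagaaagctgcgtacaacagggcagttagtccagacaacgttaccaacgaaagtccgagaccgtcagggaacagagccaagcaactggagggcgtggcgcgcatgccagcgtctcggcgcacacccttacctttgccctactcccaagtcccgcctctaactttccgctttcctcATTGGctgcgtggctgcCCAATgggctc
Acot2: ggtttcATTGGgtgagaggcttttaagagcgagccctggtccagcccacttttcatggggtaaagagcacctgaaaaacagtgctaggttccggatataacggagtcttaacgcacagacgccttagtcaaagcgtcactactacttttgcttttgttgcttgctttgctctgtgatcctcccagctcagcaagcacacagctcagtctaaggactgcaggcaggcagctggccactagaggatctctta

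RefSeq held a promoter for 30 of the 36 genes; Acaa2, Hsd17b4, Cyp4a14, Crat, Decr1 and Cyp4a10 were not matched. In the 250 bases before the start site, a CCAAT box was found in 15 of 30 genes, against 37.5% of all genes in the table, and a GC box in 17, against 35.4%. The median share of G and C bases was 58.6% over 32 promoters of these genes and 52.4% over all promoters. The part of this share in the box counts was not tested. AAGGTCA, a nuclear receptor binding motif, was found in Acadm alone, against 4.7% of all genes. AGGTCA repeated after any 1 base, the direct repeat bound by the Ppara receptor, was found in 0 of 30 and in 0.0407% of all genes, and in a looser form (AGGNCA repeated in the same way) in 0 and in 0.4%. Echs1 had 1 GC box, Etfa 2 CCAAT boxes and Acot2 1.

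Echs1, the enoyl-CoA hydratase of short chains, had 222.5, 220.5 and 240.5 normalised CPM (the read count relative to library size, scaled by edgeR within a cell type) in the tubular scrambled-miRNA libraries and 386, 461 and 442 in the exosome libraries. Every exosome library was above every scrambled-miRNA library. The means were 227.8 ± 11.03 and 429.7 ± 39.09 (SD, n = 3 each), a log2 fold of 0.92 (SE 0.15, adjusted p = 0.0243). The gene lies at chr7:140105710-140116476 (GRCm38, minus strand).

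Etfa, the alpha subunit of the electron transfer flavoprotein at chr9:55454508-55512243, had 367.5, 376 and 316 normalised CPM with scrambled miRNA, and 534, 624 and 563 with exosomes. The groups did not overlap, and the log2 fold was 0.70 (SE 0.15, adjusted p = 0.0405). Etfb differed by 0.52 log2 units (SE 0.19, adjusted p = 0.127). Its groups did not overlap in normalised CPM either, but they did on the TPM scale, and 49.9% of its words occur in other transcripts. Acot2, the mitochondrial thioesterase that frees fatty acids from CoA, at chr12:83987861-83993873, was the 1 gene lower. It had 34.1, 76.8 and 91.6 normalised CPM with scrambled miRNA and 31.6, 23.9 and 27.8 with exosomes, a log2 fold of -1.28 (SE 0.31, adjusted p = 0.0489). The lowest scrambled-miRNA library for Acot2 stood just above the highest exosome library, and 37.8% of its words are shared, most of them with Acot1.

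In normalised CPM, 10 of the 36 genes had every exosome library above every scrambled-miRNA library, where 15.9% of all genes did. These were Echs1, Etfa, Etfb, Acadm, Acads, Hadh, Hadhb, Acsm1, Acsm2 and Acsm3. For 5 genes, Cpt2, Hadha, Acaa1b, Hsd17b4 and Acot2, every exosome library was lower, where 14.5% of all genes did so. On the TPM scale these 5 genes stayed separate, but of the higher ones only Echs1, Etfa and Acsm3 did. The other higher genes overlapped between the groups on that scale. Acsm3 had 253.6, 454.4 and 247 normalised CPM with scrambled miRNA and 566, 1068 and 900.1 with exosomes, a log2 fold of 1.41 (SE 0.37) that did not pass the test (adjusted p = 0.0582). For Acsm3, 36.8% of words occur in other transcripts, nearly all in the overlapping gene Eri2. Acadm had 675, 701 and 490 against 859.5, 1127 and 1012.5, a fold of 0.68 (SE 0.20, adjusted p = 0.0758). Acaa1b had 242, 284 and 220.5 against 165, 177 and 188, a fold of -0.49 (SE 0.15, adjusted p = 0.0778). These normalised CPM values were separate between the groups, with folds the test did not call.

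The carnitine shuttle genes gave no call. Cpt1a had 297, 294 and 205 normalised CPM with scrambled miRNA and 208, 233 and 212 with exosomes, and the groups overlapped (log2 fold -0.29, SE 0.17). Cpt2 had 103, 187 and 117 against 76.2, 96.2 and 102.5 (log2 fold -0.57, SE 0.23, adjusted p = 0.172). Acadl and Acadvl showed folds of -0.11 (SE 0.16) and -0.11 (SE 0.14). Ehhadh, with 518, 1100.3 and 567 against 601, 908 and 1030, overlapped between groups. Pdk4, a starvation-responsive kinase gene, had 14.5, 156 and 18.6 against 8.10, 12.1 and 22.3, and 1 library, scrambled-miRNA library 2, stood far above the rest (log2 fold -2.16, SE 0.85, adjusted p = 0.157).

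The remaining enzymes and regulators gave no call in tubular libraries. Hadha had 237.5, 275 and 215 normalised CPM with scrambled miRNA and 194, 181 and 193 with exosomes (log2 fold -0.36, SE 0.15, adjusted p = 0.172). Acadl had 265.5, 354 and 273.5 against 262, 272 and 293, and Acadvl 450.5, 486 and 427 against 424, 406 and 429.8. The groups overlapped for Acadl and Acadvl, and for the regulators too: Ppara had 57.1, 63.7 and 43.8 against 41.2, 42.2 and 55.1, and Ppargc1a 43.3, 36.96 and 22.2 against 35.5, 33.6 and 34.8. Cyp4a10, with 450.3, 775.5 and 314 against 422, 343 and 558, and Cyp4a14, with 293, 401 and 94.3 against 181, 42.1 and 188, spread widely within each group.

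The calls depended on single libraries. Without scrambled-miRNA library 2 or any 1 exosome library 0 of 36 passed, without scrambled-miRNA library 3 there were 6, and without either mimic library 1, Echs1. Over all libraries the count was 0 with a transcript length offset and 9 with DESeq2 (7 higher, 2 lower). The shares of all genes under these alternatives are not given here. Markers moved with the treatment: tubule injury markers were 6 of 11 lower (median log2 fold -3.83) and 2 of 14 proximal tubule markers were higher (median 0.34). Tubule injury markers summed to 375, 1223 and 2042 TPM with scrambled miRNA and 262, 119 and 111 TPM with exosomes. The summed level of the 36 genes without the Acsm and Cyp4a genes was 4380 ± 972 and 4357 ± 358 TPM (SD, n = 3 each). The part of the injury markers in the oxidation gene values was not tested.

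**Figure D3:**
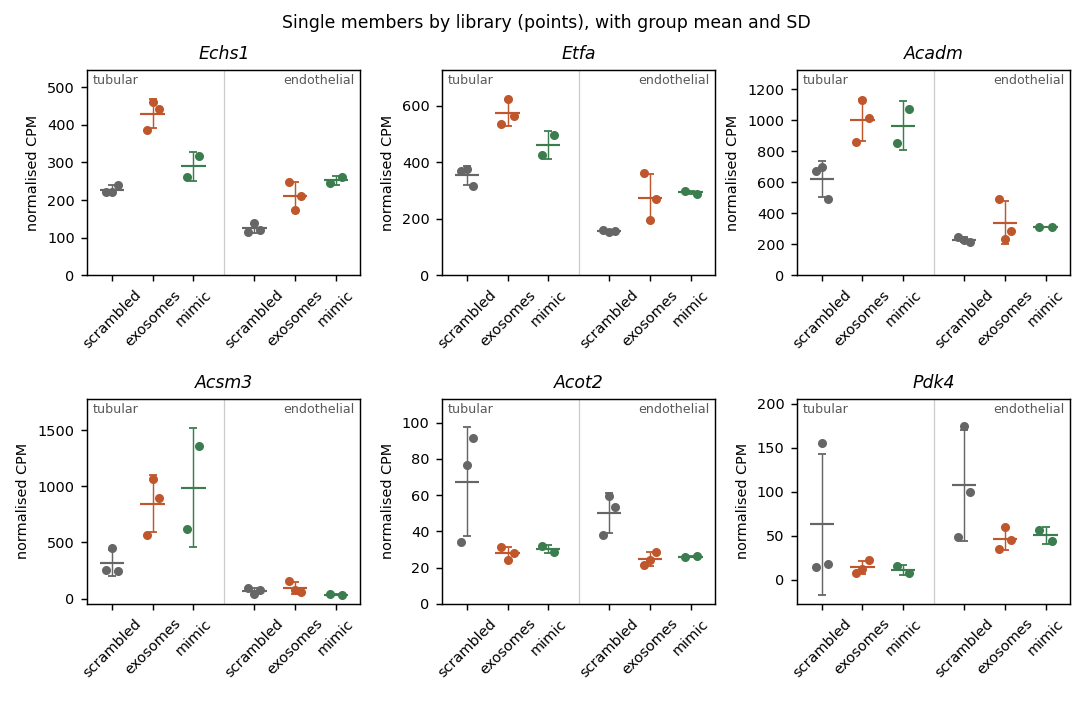
Normalised CPM (vertical axis, linear) of Echs1, Etfa, Acadm, Acsm3, Acot2 and Pdk4 in each library (points), with the group mean and SD (line and bar), for tubular libraries on the left of each panel and endothelial libraries on the right. In tubular libraries Echs1 sits between 386 and 461 with exosomes and between 220.5 and 240.5 with scrambled miRNA, while Acot2 is low with exosomes, 23.9 to 31.6.

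Of 72 further genes of the pathway, 67 were tested in tubular libraries. With exosomes 6 were higher, where 2.72% of all genes were, and 1 was lower, where 2.41% were (median log2 fold 0.26). The higher genes included the racemase gene Amacr (1.36, SE 0.27), the ketone-body thiolase gene Acat1 (1.11, SE 0.24), Acot13 (0.87, SE 0.15) and Hsd17b10 (0.65, SE 0.13). The lower gene was Plin2, a coat protein of lipid droplets (-1.97, SE 0.42). Of 22 further regulators 0 were called by edgeR, and 6 had an unadjusted p under 0.05, against 24.8% of all genes.

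The miR-486-5p mimic gave no call among the 36 genes in tubular cells. By edgeR's quasi-likelihood test 0 of 36 passed against scrambled miRNA, where 0.0201% of all genes did, and 11 had an unadjusted p under 0.05, against 16.3% of all genes. DESeq2 called 4: Acot2, Acsm2, Acsm3 and Eci1 (its share of all genes is not given here). This comparison and that with exosomes share their scrambled-miRNA libraries. Acsm3 had 616.5 and 1363 normalised CPM (log2 fold 1.64, SE 0.40, adjusted p = 0.132), Acsm2 5924 and 7602.5 against 3944, 4306 and 2411.5 (0.93, SE 0.29, adjusted p = 0.183). Acot2 had 31.6 and 28.7 (-1.16, SE 0.35, adjusted p = 0.176). Acadm had 854 and 1075 (0.63, SE 0.22, adjusted p = 0.210). For Echs1, which had 262.5 and 316 with the mimic, the fold was 0.34 (SE 0.16, adjusted p = 0.338). On the TPM scale, where the median of all genes shifted by -0.19, the log2 ratio of the Echs1 group means was -0.05.

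In normalised CPM, every mimic library lay above every scrambled-miRNA library for 11 genes, against 15.6% of all genes, and below for 3, against 15.9%. Of the higher genes, Cpt1a, Acadm, Acad11, Echs1, Hadh and Acaa1a overlapped between the groups on the TPM scale, and of the lower ones Acaa1b did. The 3 were Eci1, an isomerase for unsaturated chains, Acaa1b and Acot2. Without scrambled-miRNA library 1, 2 genes passed, Acot2 and Eci1 (share of all genes not given here). The summed level of the 36 genes was 10266 and 10862.5 TPM, above each scrambled-miRNA library. Without the Acsm and Cyp4a genes the sum was 4775.5 and 4142 TPM with the mimic against 5235, 4581 and 3323 TPM with scrambled miRNA, and the groups overlapped. The 3 Acsm genes and Acot2 summed to 5359 and 6687 TPM against 3757.5, 3745 and 1979 TPM. All 14 proximal tubule markers had a fold above 0 with the mimic (median 0.68). All 11 tubule injury markers had a fold below 0 (median -4.33, 10 with an unadjusted p under 0.05), and they summed to 149.6 and 76.6 TPM with the mimic against 375, 1223 and 2042 TPM. All 7 podocyte markers also had a fold below 0 (median -2.20), with sums of 5.95 and 3.21 TPM against 23.9, 5.71 and 10.8 TPM. The part of these markers in the oxidation gene values was not tested. On the TPM scale, where the median of all genes shifted by -0.19, 13 of 36 oxidation genes were above 0, against 21 of 36 in the fit. Cyp4a14 ran from 5.67 normalised CPM in mimic library 2 to 132.5 in mimic library 1, beside a scrambled-miRNA range of 94.3 to 401.

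The other listed genes spread as follows with the mimic in tubular libraries. Cpt2 had 122 and 149 normalised CPM (SE of the log2 fold 0.26), Acadl 283 and 329 (0.04, SE 0.18) and Acadvl 426 and 441 (-0.07, SE 0.15). All of these overlapped the scrambled-miRNA libraries. Hadha had 230.1 and 199 (-0.18, SE 0.16), and Ehhadh 852 and 837 (0.21, SE 0.34). Ppara had 60.5 and 56.3 (0.09, SE 0.19), Ppargc1a 48.3 and 30.9 and Pdk4 15.2 and 7.55 (-2.46, SE 0.99, adjusted p = 0.267). For Pdk4 the fold again set these libraries against a single high scrambled-miRNA library.

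Between mimic and exosome tubular libraries no gene of the 36 passed the test. edgeR called 0 of 36, where 0.0% of all genes passed, and 4 had an unadjusted p under 0.05, against 12.4% of all genes. DESeq2 called 3, Cpt1a, Echs1 and Eci1 (its share of all genes is not given here). Cpt1a had 333 and 355 normalised CPM with the mimic and 208, 233 and 212 with exosomes, a fold of 0.66 (SE 0.19, adjusted p = 0.321). Echs1 had 262.5 and 316 against 386, 461 and 442, a fold of -0.57 (SE 0.17, adjusted p = 0.321). Both groups of libraries were separate for the 2 genes, but neither fold passed the test across all genes.

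In endothelial libraries exosomes changed no gene of the pathway beyond the threshold. edgeR called 0 of 36, where 0.0% of all genes passed, and 8 had an unadjusted p under 0.05, against 11.4% of all genes. DESeq2 called 3: Acot2, Echs1 and Etfa (its share of all genes is not given here). In normalised CPM, every exosome library was above every scrambled-miRNA library for 6 genes, against 9.21% of all genes. They were Etfa, Etfb, Echs1, Hadhb, Acaa2 and Ppargc1a, all of which overlapped between the groups on the TPM scale. Acot2 was below in every library, 1 gene against 5.96% of all genes. Etfa had 159, 153 and 155 normalised CPM with scrambled miRNA and 360, 194 and 270 with exosomes (log2 fold 0.82, SE 0.22, adjusted p = 0.220). Echs1 had 115, 139 and 120 against 249.1, 173 and 211.5 (0.76, SE 0.18, adjusted p = 0.194). Acot2 had 37.8, 59.3 and 53.2 against 21.3, 24.1 and 28.8 (-1.02, SE 0.20, adjusted p = 0.186).

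Levels of the entry and dehydrogenase genes in endothelial libraries overlapped between exosomes and scrambled miRNA. Cpt1a had 275, 334 and 266 normalised CPM with scrambled miRNA and 404, 229 and 392 with exosomes (log2 fold 0.23, SE 0.23). Acadm had 249.2, 225 and 216 against 495, 235 and 288 (0.56, SE 0.26, adjusted p = 0.468), with exosome library 1 the highest. Acadl had 199, 227 and 209.6 against 291.5, 195 and 217, and Acadvl 261, 283 and 284 against 339, 242 and 335. The genes that stood far higher in tubular cells were led by the same exosome library. Acsm2 had 3125, 599.8 and 409 with exosomes against 1382, 765 and 869, Ehhadh 342, 97.8 and 101 against 177, 198 and 211, and Cyp4a10 367, 38.96 and 39.4 against 198, 170 and 124. For the 8 genes more than 2 log2 units higher in tubular libraries, 3 folds were above 0 and 5 below. Pdk4 had 48.7, 174 and 99.6 with scrambled miRNA against 34.7, 60.5 and 45.1 (-1.20, SE 0.41, adjusted p = 0.310).

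All 8 thick ascending limb markers had a fold above 0 (median 1.21), and all 12 distal tubule and collecting duct markers did as well (median 1.27). Tubule injury markers summed to 9972, 11465 and 12884 TPM with scrambled miRNA and 1128, 6227 and 906 TPM with exosomes. On the TPM scale, where the median of all genes shifted by -0.41, 15 of the 36 oxidation genes changed sign and 11 were above 0. The part of tubule RNA and of the injury markers in the oxidation gene folds was not tested.

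In endothelial libraries the folds with the mimic ran from -2.96 to 1.24 on the log2 scale. edgeR called 0 of 36 against scrambled miRNA, where 0.0% of all genes passed. At an unadjusted p under 0.05 there were 16, against 19.5% of all genes. DESeq2 called 9 (its share of all genes is not given here). In normalised CPM, every mimic library was above every scrambled-miRNA library for 16 genes, against 23.4% of all genes, and below for 12, against 21.8%. All 5 acyl-CoA dehydrogenase genes, all 3 electron transfer genes and 4 of 5 genes of the later cycle steps had folds above 0. On the TPM scale, where the median of all genes shifted by -0.20, Etfdh, Eci1, Acaa1a and Ppara changed sign. Acaa2 had 49.7, 108 and 78.7 normalised CPM with scrambled miRNA and 196 and 176 with the mimic (log2 fold 1.24, SE 0.32, adjusted p = 0.0920). Echs1 had 115, 139 and 120 against 244 and 261 (1.02, SE 0.19, adjusted p = 0.0545). Hadhb had 194, 268 and 242 against 460.5 and 466 (0.98, SE 0.22, adjusted p = 0.0742). Ppargc1a, the coactivator, had 54.4, 83.7 and 62.8 against 156 and 131.5 (1.10, SE 0.25, adjusted p = 0.0761).

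The Acsm and thioesterase genes (4 of 4), the peroxisomal genes (4 of 5) and the Cyp4a genes (2 of 2) had folds below 0. Acaa1b had 65.2, 53.5 and 87.2 normalised CPM with scrambled miRNA and 21.1 and 13.3 with the mimic (-2.0, SE 0.51, adjusted p = 0.0879). Ehhadh had 177, 198 and 211 against 85.98 and 77.7, and Cyp4a10 had 198, 170 and 124 against 45.2 and 15.8. Acsm2 had 1382, 765 and 869 against 370.5 and 292. Acsm1 had the largest of the negative Acsm folds, -2.57 (SE 0.80, adjusted p = 0.136), and Cyp4a14 had -2.96.

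Among the entry genes, Cpt1a, Acsl1 and the carnitine acetyltransferase gene Crat were higher in normalised CPM in both mimic libraries than in every scrambled-miRNA library. So were all 5 dehydrogenase genes, while Cpt2 was below. On the TPM scale Cpt1a, Acadm, Acadl, Acads and Acad11 overlapped between the groups. None of these entry and dehydrogenase genes passed the test by edgeR. Acsl1 had 341 and 308 normalised CPM against 108, 249.1 and 197 (log2 fold 0.81, SE 0.34, adjusted p = 0.234), and Crat 143.4 and 139.7 against 109, 94.8 and 90.6 (0.53, SE 0.18, adjusted p = 0.157). Cpt1a had 405 and 356 normalised CPM (log2 fold 0.38, SE 0.26), and Cpt2 59.9 and 49.3 against 64.3, 80.1 and 76.9 (-0.43, SE 0.21). Acadm had 313 and 312 (0.44, SE 0.29), Acadl 255 in both libraries (0.27, SE 0.20) and Acadvl 374 and 314 (0.32, SE 0.20). Hadha, with 407 and 381 against 211, 276.5 and 251, did not overlap either (0.68, SE 0.20, adjusted p = 0.126). Etfa had 297 and 289 (0.91, SE 0.24, adjusted p = 0.0972). Ppara had 8.02 and 11.1 against 23.8, 11.7 and 15.2 (-0.81, SE 0.54), and Acsm3 39.97 and 30.6 against 89.96, 37.2 and 73.8 (-0.93, SE 0.48). The mimic libraries of Acsm3 overlapped the scrambled-miRNA ones, while those of Ppara lay below them in normalised CPM but not on the TPM scale.

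The 36 genes split by their cell type fold. All 8 genes more than 2 log2 units higher in tubular libraries had a negative fold with the mimic in endothelial libraries (median -1.80). Of the 5 called lower in tubular libraries, 4 had a positive fold (median 0.81), and of the other 23, 15 had a positive one (median 0.26). The fold between cell types and the mimic fold use some of the same libraries, so these counts describe the libraries and were not tested. Proximal tubule markers had 12 of 14 negative folds in the same comparison (median -1.78), and thick ascending limb markers 8 of 8 positive (median 1.84). Proximal tubule markers summed to 9284, 4306 and 4938 TPM with scrambled miRNA and 2124 and 1824 TPM with the mimic; thick ascending limb markers summed to 3703, 8552 and 5747 against 13260.5 and 14868 TPM. Tubule injury markers, 11 of 11 with folds below 0 (median -2.87), summed to 961 and 1368 TPM with the mimic. Summed without the Acsm and Cyp4a genes, the members had 2183 ± 223 TPM with scrambled miRNA (SD, n = 3) and 2646 ± 88.4 with the mimic (SD, n = 2). Whether cells of other nephron segments carry these folds was not tested. Without endothelial exosome library 1, whose proximal tubule marker sum was highest, 13 genes passed the test. Without the other exosome libraries 1 did, Echs1. The shares of all genes in these fits are not given here.

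**Figure D4:**
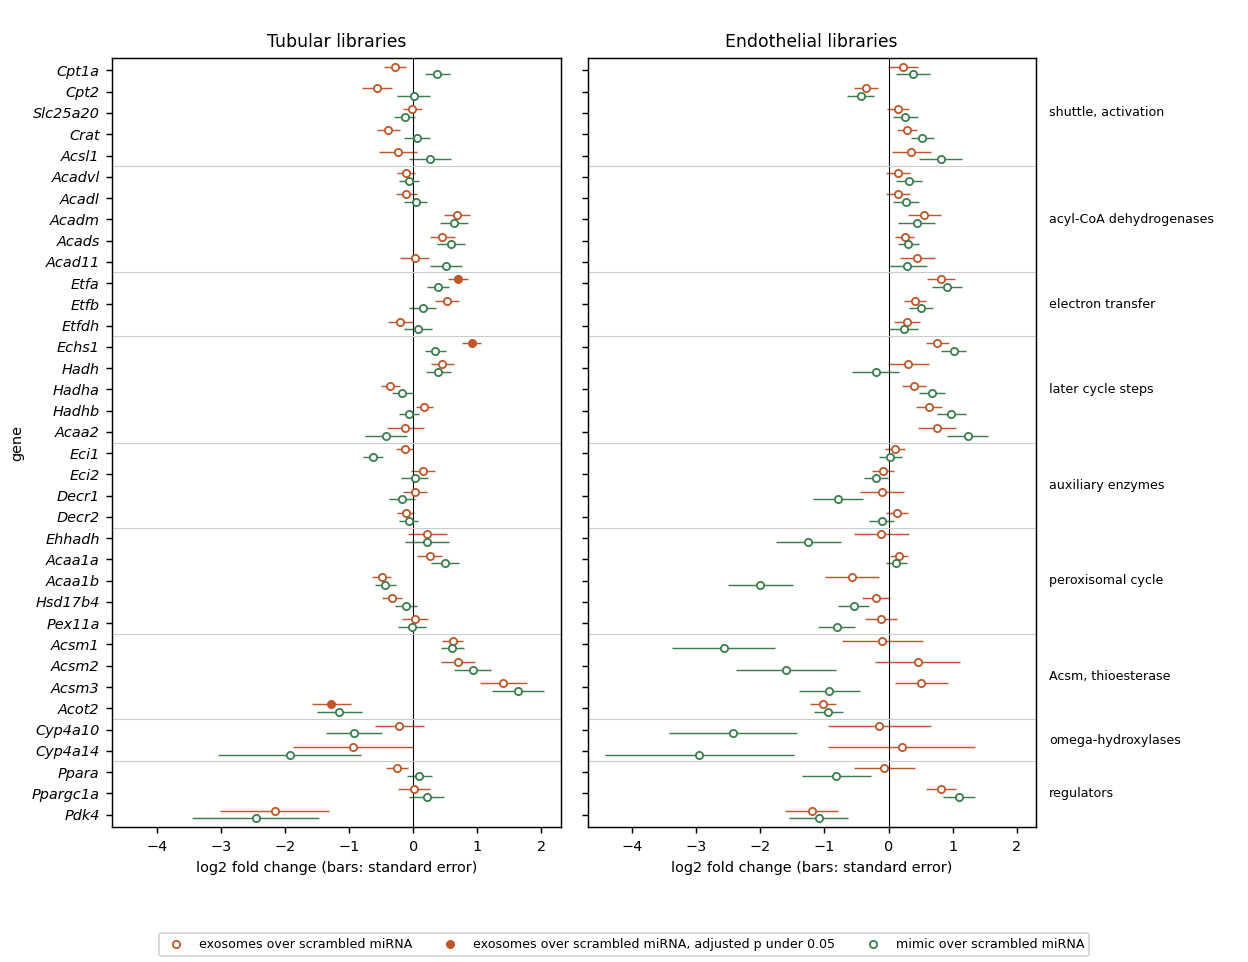
Log2 fold (horizontal axis) of exosomes and of the mimic over scrambled miRNA for each of the 36 genes (vertical axis), in tubular libraries (left panel) and endothelial libraries (right panel), with bars for the standard error and a filled point for an adjusted p under 0.05. Filled points are Echs1 at 0.92, Etfa at 0.70 and Acot2 at -1.28, all in tubular libraries with exosomes; in endothelial libraries with the mimic, Cyp4a14 lies at -2.96 and Acaa2 at 1.24.

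Between mimic and exosomes in endothelial libraries edgeR called 0 of 36, where 0.0% of all genes passed, and DESeq2 called 0. At an unadjusted p under 0.05 there were 7, against 4.05% of all genes. A test of whether the treatment effect differed between cell types gave 0 of 36 by edgeR for exosomes, where 0.0% of all genes passed. In that test 3 had an unadjusted p under 0.05, against 7.78% of all genes, and DESeq2 called 0. For the mimic the same test gave 0 of 36 by edgeR, where 0.0% of all genes passed. There 11 had an unadjusted p under 0.05, against 15.5% of all genes, and DESeq2 called 5 (its share of all genes is not given here). In that comparison Acsm1 had the largest difference, 3.18 log2 units (SE 0.83, adjusted p = 0.140), its fold being 0.61 in tubular and -2.57 in endothelial libraries. An effect called in tubular libraries and not in endothelial ones is not shown here to differ. Without endothelial exosome library 1, 5 genes passed for the mimic (share of all genes not given here).

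Sham and untreated injured libraries appear only as the authors' deposited comparison tables, whose log2 folds come from DESeq2. In all 12 of the authors' deposited tables the folds are small beside their p-values: the median ratio of fold to standard error was 0.136 to 1.07, where the p-values imply 0.73 to 1.56. The folds of the authors' deposited tables are therefore not set against those of the fits above. In the tubular comparison of untreated injury with sham, the authors' deposited table called 3 of 36 genes higher (11.5% of all genes) and 3 lower (8.65%). The authors' deposited table gave a log2 fold of 1.44 for Acot2, 0.85 for Ppara and 1.93 for Pdk4, which were higher after injury. It gave -0.65 for Acadm, -0.58 for Etfb and -0.86 for Decr2, a peroxisomal reductase gene, in the authors' deposited table. The proximal tubule markers had a median fold of -0.78 in the authors' deposited table, with 8 of 14 lower, and 10 of 11 tubule injury markers were higher (median 3.85). In endothelial cells the authors' deposited table called Acot2 higher (0.78), 1 gene against 3.3% of all genes, and Acadm lower (-0.84), 1 against 1.11%. Acot2 and Acadm were called in both cell types, in the same direction. Samples of the 2 cell types share library numbers and may share mice, so these calls may not be independent. For endothelial Pdk4 the authors' deposited table has no adjusted p.

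Compared with sham, tubular injury with exosomes gave 2 genes higher (6.24% of all genes), Etfb (0.59) and Echs1 (0.73), and 3 lower (4.96%), Cpt1a (-0.74), Ppargc1a (-0.996) and Pdk4 (-0.27), in the authors' deposited table. With the mimic, the authors' deposited table called 0 of 36 higher (0.0448% of all genes) and 0 lower (0.986%). That comparison had the lowest ratio of fold to standard error in the authors' deposited tables, 0.136 where the p-values imply 0.73. In endothelial cells, the authors' deposited table called 0 of 36 genes higher (3.35% of all genes) and 11 lower (3.37%) with exosomes over sham. The largest were Ehhadh (-1.97), Pex11a, a peroxisome division gene (-1.70), and Acsm2 (-1.64) in the authors' deposited table. With the mimic over sham, the authors' deposited table called 0 higher (3.93% of all genes) and 14 lower (7.63%), with folds of -3.90 for Acsm2, -3.65 for Acsm1, -3.14 for Ehhadh and -1.14 for Acadm. Proximal tubule markers were lower in 6 of 14 with exosomes (median -1.35) in the same comparison of the authors' deposited table. With the mimic they were lower in 13 of 14 (median -3.62) in the authors' deposited table. The part of these markers in the oxidation gene calls was not tested. The labels mark the sham libraries as re-analysed from earlier records. Treatment and record therefore cannot be told apart in these comparisons of treated groups with sham.

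Untreated injured tubular cells were also compared with each treated group, and oxidation genes were called in both directions. Over exosomes, the authors' deposited table called 5 genes higher (17.6% of all genes) and 9 lower (13.3%). The lower genes with the largest folds were Etfb (-1.29), Echs1 (-0.97), Decr2 (-0.95), Acadm (-0.84) and Etfa (-0.73) in the authors' deposited table. The higher genes were Pdk4 (6.57), Acot2 (2.01), Acsl1 (0.76), Cpt1a (0.73) and Ppara (0.54) in the authors' deposited table. Over the mimic, the authors' deposited table called 2 higher (14.1% of all genes), Pdk4 (6.98) and Acot2 (1.66), and 8 lower (8.78%), among them Etfb (-1.0), Decr2 (-1.01), Acad11 (-0.80) and Acadm (-0.73). Over scrambled miRNA, the authors' deposited table called 1 higher (11.1% of all genes), Pdk4 (4.25), and 3 lower (6.75%), Etfb (-0.77), Decr1 (-0.75) and Decr2 (-1.10). Pdk4 was thus higher in untreated tubular libraries than in each treated group in the authors' deposited table. The 3 comparisons share the untreated libraries, which the labels mark as re-analysed from earlier records, so that treatment and record cannot be told apart in them. Injury markers were higher over exosomes in 11 of 11, with a median of 4.44, in the authors' deposited table, and over scrambled miRNA in 4 of 11, with a median of 0.50.

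In endothelial cells the untreated libraries had higher levels of several oxidation genes than the treated ones. Over scrambled miRNA, the authors' deposited table called 2 genes higher (0.344% of all genes), Acsm3 (1.75) and Ppara (1.46), and 0 lower (0.413%). Over exosomes, the authors' deposited table called 5 higher (1.83% of all genes), Ehhadh (1.22), Pex11a (1.76), Acot2 (1.56), Ppara (1.81) and Eci2 (0.76), and 0 lower (1.95%). Over the mimic, the authors' deposited table called 12 higher (6.46% of all genes) and 1 lower (3.78%). The higher genes included Acsm1 (3.48), Acaa1b (2.80), Acsm2 (2.68), Cyp4a10 (2.63), Acsm3 (2.57) and Ehhadh (2.46), and the lower one was Ppargc1a (-1.11), in the authors' deposited table. Proximal tubule markers in the comparison with the mimic were higher in 11 of 14 (median 2.14) in the authors' deposited table, and their part in these calls was not tested. Ppara was called higher in untreated libraries in all 3 endothelial comparisons of the authors' deposited table, which share the same re-analysed untreated libraries, so that these calls are not independent and treatment and record cannot be told apart.

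**Figure D5:**
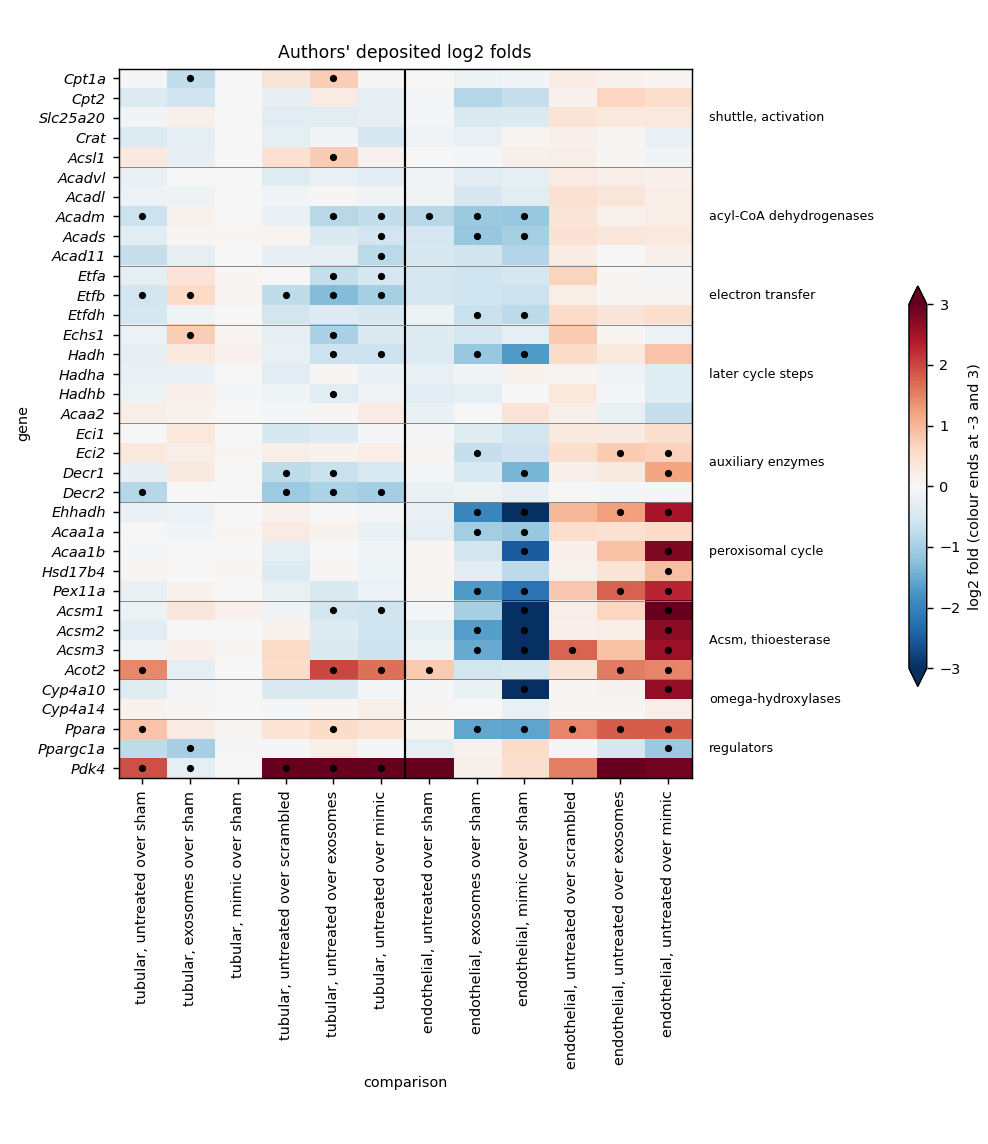
The log2 fold of each of the 36 genes (vertical axis) in the 12 comparisons of the authors' deposited tables (horizontal axis, first-named group over second), as colour that ends at -3 and 3, with a dot for an adjusted p under 0.05. In the authors' deposited table the Acsm, Ehhadh, Acaa1b and Cyp4a10 squares are dark blue in endothelial cells with the mimic over sham, down to -3.90, and dark red in untreated over mimic, up to 3.48.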

How the data were processed

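RNA of 16 injured-kidney libraries was analysed from transcript quantifications, made with Salmon 0.13.1 on GRCm38 per the submitters' processing notes. The deposited estimated counts, TPM values and effective lengths per transcript were summed per gene ID (TPM and counts) or weighted by abundance (length); counts were rounded. The authors' 12 deposited DESeq2 tables give a base mean signal, log2 folds, standard errors and p-values for comparisons that include sham and untreated libraries.

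Counts of each cell type were fitted with edgeR 4.0.16 (quasi-likelihood, TMM, filterByExpr with a minimum count of 10), on 14913 tubular, 16316 endothelial and 17143 genes for both, and 9 tests were made with Benjamini-Hochberg adjustment and a threshold of 0.05. Normalised CPM came from the fit of 1 cell type and is not set against the other. Standard errors were taken from the fold and F statistic. The tests were checked on simulated data. The alternatives were DESeq2 1.42.0, another size factor, no low-count filter, a length offset, only the groups compared, a replicate block, and each library left out. Shares of all genes called are given for the main fits and the authors' deposited tables, not for the alternatives. Deviations from the group mean correlated at -0.0702 to 0.226 between tubular samples with the same title number. Between endothelial ones the range was -0.0114 to 0.241, and between cell types by library number -0.108 to 0.0881. In groups this small, deviations from the mean are tied to each other, so these values cannot show whether samples were paired. No pairing was assumed, because the labels do not state it. The 36 genes, the marker lists and the pathway lists were chosen with earlier results of these data known. The named-gene rule gives library values for genes past the threshold in a treatment comparison and for 17 listed genes, and at most 6 other pathway genes per comparison. A further pathway gene past the threshold is not reported here. Shared 31-base words were counted in GENCODE M21 transcripts.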

Additional observations from a re-analysis of the deposited data

How the results depend on the processing

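The cell type comparison kept 30 to 34 called genes under every alternative run. In tubular libraries with exosomes over scrambled miRNA, where 3 genes passed, the count was 9 with DESeq2, 9 without the low-count filter, 0 with the length offset and 1 with only the groups compared, and 0 to 6 when each library was left out. For the tubular mimic over scrambled miRNA, where 0 passed, it was 4 with DESeq2, 6 without the filter and 0 to 2 when each library was left out. For the tubular mimic over exosomes it was 3, 1 without the filter and 1 with only the groups compared. Endothelial exosomes gave 3 with DESeq2 and 6 without the filter; the endothelial mimic gave 9, 17 without the filter and 14 with only the groups compared, and 0 to 13 when each library was left out. The endothelial mimic over exosomes gave 7 without the filter, the exosome interaction 1, and the mimic interaction 5 with DESeq2, 8 without the filter and 0 to 5 when each library was left out. The share of all genes called under each alternative is not given here, so these counts are not read as a result about the pathway. The cause of these differences was not tested.

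Within a cell type, the replicate block used title numbers, which the labels do not say pair samples. With it, 4 genes passed for the endothelial mimic (Acaa1b, Acaa2, Cyp4a10 and Cyp4a14). The count was 2 for tubular exosomes (Acsm3 and Echs1) and 0 for the tubular mimic. Between cell types the block joined samples of the same treatment and library number, which the labels do not say came from the same mouse. With that block 30 genes passed.

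In the authors' deposited tables at an adjusted p under 0.01, the members called in endothelial cells were 7 and 11 for exosomes and mimic over sham, 3, 8 and 0 for untreated over exosomes, mimic and scrambled miRNA, and 0 for untreated over sham. In tubular cells they were 2 and 0 for exosomes and mimic over sham, 8, 4 and 3 for untreated over exosomes, mimic and scrambled miRNA, and 2 for untreated over sham, from the authors' deposited tables. The limits are few libraries per group, 2 in each mimic group, and a depth of 8.27 M reads in the shallowest.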
